A study of Mus musculus with 2 samples.

Results

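The genes described here are those of the ionotropic glutamate receptors and of the proteins that bind and traffic them. They were taken as probe sets whose platform annotation names a single gene that is 1 of 34 symbols: AMPA, NMDA, kainate and delta receptor subunits, transmembrane AMPA receptor regulatory proteins (TARPs), cornichons, Neto and Shisa proteins, Gsg1l, Grip1, Grip2 and Pick1. Of these, 33 were measured, by 37 probe sets, among 22180 named genes in all. The signal of Grin1, which encodes the subunit that all NMDA receptors share, was not analysed here. The rule picks probe sets by gene name and sets no limit on signal, but the list of genes was drawn up with earlier results of these data known.

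The RNA came from adult D2Cre::RiboTag mice. In such animals a Cre driver for Drd2, the dopamine D2 receptor gene, switches on a haemagglutinin-tagged ribosomal protein, and tagged ribosomes are pulled down from the medial prefrontal cortex with the messengers they carry. The labels call the 2 arrays technical replicates, from pooled cortices of 5 mice, and the titles give the mRNA as that of Drd2+ cells. There is 1 group, with no unprecipitated RNA, mock precipitation or other condition analysed here, so the values give signal over the arrays' own background and not enrichment over cortex. Cre recombination is permanent, so cells that used the driver earlier in life can also carry the tag.

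Glutamate is the main excitatory transmitter of the cortex. AMPA receptors carry most of the fast current, NMDA receptors need glutamate together with glycine or D-serine and admit calcium once the membrane is depolarised, and kainate receptors act on both sides of the synapse. Auxiliary proteins are not part of the ligand-gated pore. They set how many receptors reach the synapse and how fast these open, close and desensitise.

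Values are signals on a scale taken to be log2 from their range, averaged on each array over the probe sets of a gene. Background was set by 1394 genes for olfactory and vomeronasal receptors (sensory receptor genes). A gene counted as above background if it passed their 95th percentile on both arrays, which was 5.61 for replicate 1 and 5.66 for replicate 2. Stricter thresholds were the 99th percentile of the same genes, at 6.64 on both arrays, and the 95th percentile of 33 genes of testis, liver and skeletal muscle, at 7.24 and 7.02, called the out-of-tissue threshold. It rests on few genes, 8 of which were themselves above background. Errors are SDs over the 2 technical arrays and hold no variation between animals. No p-value is given, since there is no second group. Probe sets differ in how strongly they bind, so members were not ranked by level. Where signals of related genes stand side by side, only their calls against background are compared.

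Nearly the whole receptor set gave signal. Above background were 32 of the 33 measured genes (97.0%), against 60.3% of all named genes. Without the sensory receptor genes, which set the threshold, that share of named genes was 64.1%. Of the members, 31 passed the 99th percentile of sensory receptor signals, against 45% of named genes. At the out-of-tissue threshold 30 passed, against 38.5% of named genes. The median over the 33 genes was 9.54 on replicate 1 and 9.49 on replicate 2, and that over all named genes was 6.355 and 6.36. Mean signal exceeded 8.32, which 25% of named genes do, in 26 members, and 9.74, which 9.99% of named genes do, in 16. For 26 members, not 1 of the 1394 sensory receptor genes reached their signal on either array. The 3 genes that did not pass every threshold were the NMDA receptor subunit genes Grin2c and Grin3b and the scaffold gene Grip2.

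**Figure D1:**
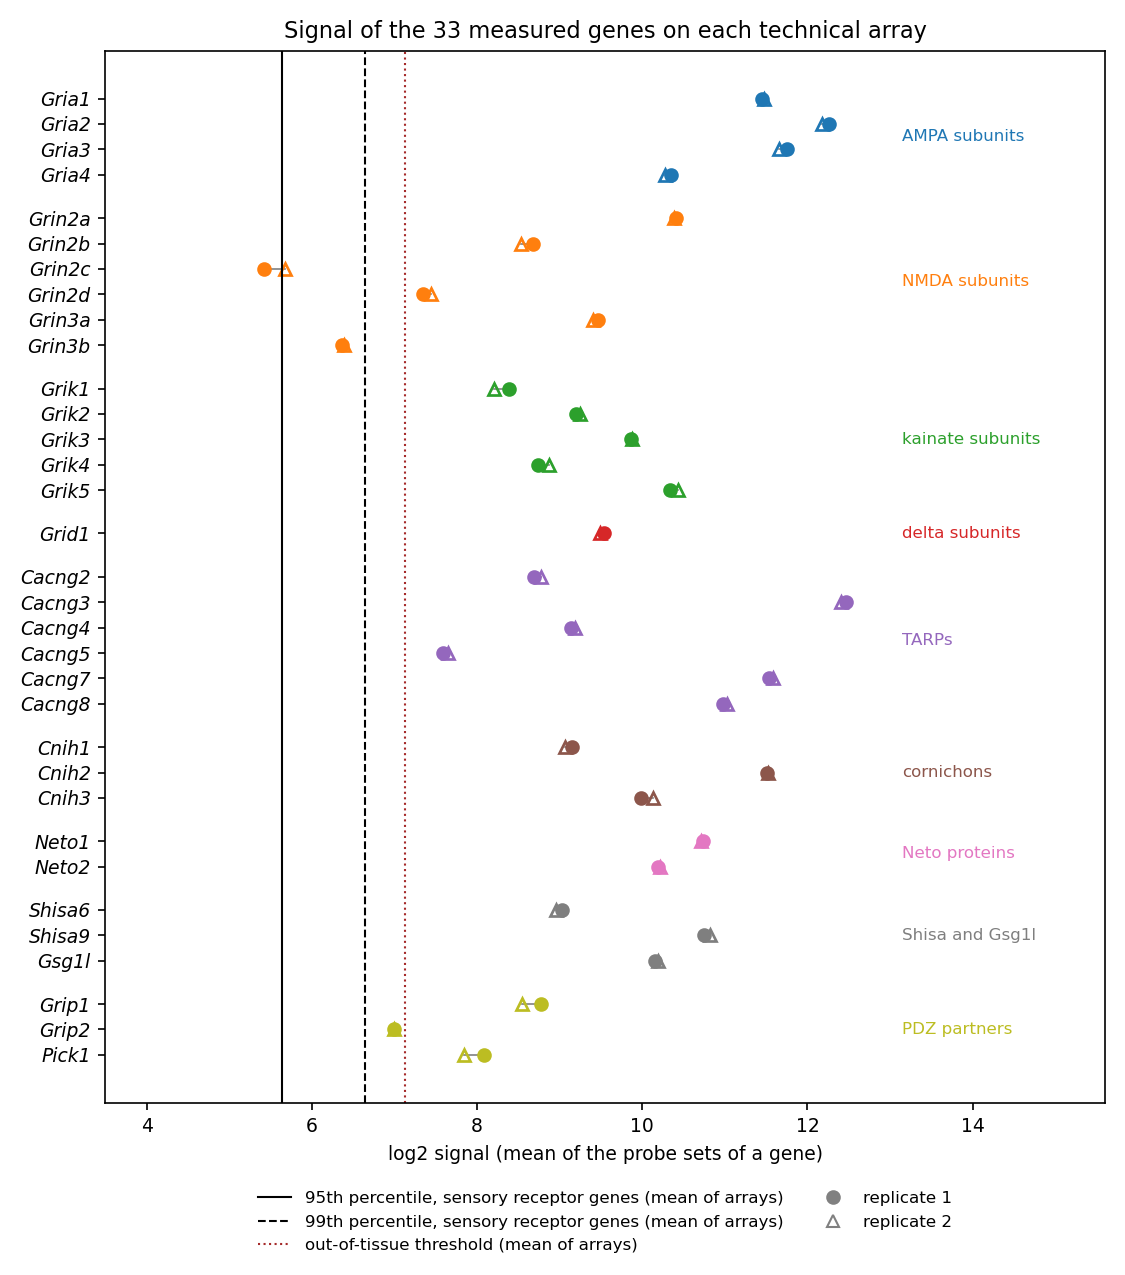
Log2 signal (horizontal axis) of each of the 33 measured genes (rows, grouped by role) on replicate 1 (filled circles) and replicate 2 (open triangles), with the 3 thresholds as vertical lines drawn at the mean of the arrays. Grin2c straddles the 95th percentile of sensory receptor signals, Grin3b lies between the 95th and 99th percentiles, Grip2 just under the out-of-tissue threshold, and the other 30 genes lie to the right of all lines.

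**Figure D2:**
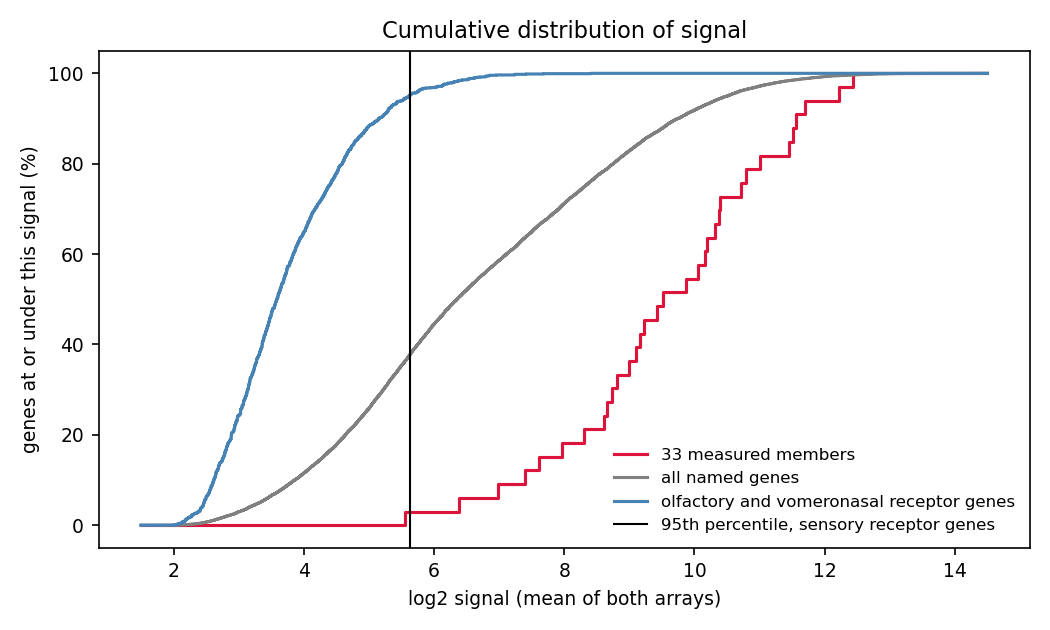
Share of genes (vertical axis, %) at or under each log2 signal (horizontal axis, mean of both arrays) for the 33 measured members, all 22180 named genes and the 1394 olfactory and vomeronasal receptor genes, with the 95th percentile of the last as a vertical line at the mean of the arrays. The curve of the members runs to the right of that of the named genes, with medians of 9.515 and 6.355.

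The 4 AMPA receptor subunit genes were all above every threshold, where 38.5% of all named genes passed the out-of-tissue threshold. Gria1, which encodes GluA1, a subunit added to synapses during potentiation, had signals of 11.45 and 11.47 on replicates 1 and 2. Gria2 encodes GluA2, the subunit whose edited form keeps calcium out of the channel, and it read 12.26 and 12.18. Gria3, whose product pairs with GluA2 in forebrain receptors, read 11.75 and 11.66. Gria4, encoding a fast-gating subunit known from many interneurons, read 10.35 and 10.27. The arrays differed by at most 0.09 units in these genes, and each lay at least 4.67 units over background on average. The windows of 250 bases before the transcription start are shown for Gria2 and Gria4. These are the AMPA receptor genes that have an entry in the RefSeq promoter table (build GRCm38.p6). Gria2 lies at chr3:80802836-80803085 and Gria4 at chr9:4796235-4796484, both on the minus strand, printed 5′ to 3′ with each CpG dinucleotide in capitals.
Gria2: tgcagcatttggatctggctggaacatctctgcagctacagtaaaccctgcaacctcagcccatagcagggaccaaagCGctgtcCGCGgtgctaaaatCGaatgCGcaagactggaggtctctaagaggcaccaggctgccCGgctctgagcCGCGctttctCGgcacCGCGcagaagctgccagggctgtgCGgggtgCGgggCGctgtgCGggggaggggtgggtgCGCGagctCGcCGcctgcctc
Gria4: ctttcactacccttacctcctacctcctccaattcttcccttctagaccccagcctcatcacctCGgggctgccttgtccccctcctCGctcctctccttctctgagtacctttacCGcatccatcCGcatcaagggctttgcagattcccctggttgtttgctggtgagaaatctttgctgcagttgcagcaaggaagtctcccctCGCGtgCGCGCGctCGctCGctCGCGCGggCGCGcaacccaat
The Gria2 window holds 19 CpGs and is 64.8% G or C, and the Gria4 window holds 16 CpGs at 58.8%.

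Of the measured NMDA receptor subunit genes, 5 of 6 were above background, against 60.3% of all named genes. The stricter thresholds were passed by 4, against 45% of named genes at the 99th percentile and 38.5% at the out-of-tissue threshold. Grin2a, encoding the main GluN2 subunit of mature forebrain synapses, gave 10.41 and 10.38. Grin2b, encoding the subunit that prevails early in life and has slow decay, averaged 8.68 and 8.53 over probe sets that did not agree. Its stronger probe set read 11.35 and 11.34, and its weaker one 6.01 and 5.72, barely over background on replicate 2. The mean for Grin2b therefore describes neither probe set. Grin2d, encoding a slow subunit known from interneurons and the brainstem, averaged 7.35 and 7.44 over probe sets at 8.46 and 8.44 and at 6.24 and 6.44. It passed every threshold by its mean, with 3 sensory receptor genes at or above it on at least 1 array. The weaker probe sets of Grin2b and Grin2d passed neither of the stricter thresholds.

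Grin2c, best known from cerebellar granule cells, was the single member not called above background. Its mean read 5.425 on replicate 1, under the threshold, and 5.68 on replicate 2, over it by 0.02. The probe sets behind that mean lay on different sides, at 6.57 and 6.62 and at 4.28 and 4.74. On at least 1 array, 99 of the 1394 sensory receptor genes reached the Grin2c mean. Of the glycine-binding GluN3 subunits, Grin3a, which lowers calcium entry through NMDA receptors, gave 9.46 and 9.40, over every threshold. Grin3b, known mainly from motor neurons, gave 6.37 and 6.39. That is 0.74 units over background on average but under the 99th percentile of sensory receptor signals, 27 of which reached it on at least 1 array. The RefSeq windows of these weakly detected genes, on the same build, are at chr11:115267244-115267493 on the minus strand for Grin2c and chr10:79970474-79970723 on the plus strand for Grin3b, again with CpGs in capitals.
Grin2c: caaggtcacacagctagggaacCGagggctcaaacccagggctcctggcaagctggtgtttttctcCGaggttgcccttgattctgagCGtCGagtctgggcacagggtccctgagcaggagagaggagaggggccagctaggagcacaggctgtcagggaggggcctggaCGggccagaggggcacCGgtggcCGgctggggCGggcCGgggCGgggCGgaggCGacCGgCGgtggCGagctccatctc
Grin3b: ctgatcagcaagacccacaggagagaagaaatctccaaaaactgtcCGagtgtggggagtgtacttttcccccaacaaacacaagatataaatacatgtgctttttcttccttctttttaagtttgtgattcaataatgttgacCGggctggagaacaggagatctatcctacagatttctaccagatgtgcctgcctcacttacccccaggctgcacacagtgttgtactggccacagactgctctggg
The Grin2c window holds 15 CpGs at 68.8% G or C, close to the Gria4 window in its number of CpGs. The Grin3b window holds 2 CpGs at 46.0% G or C. Whether the composition of a window goes with the signal of its gene was not tested.

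Every kainate receptor subunit gene was above every threshold, against 38.5% of all named genes above the out-of-tissue threshold. Among the subunits that can form channels alone, Grik1, known from interneurons, gave 8.39 and 8.21. Grik2, encoding the widespread GluK2 subunit, gave 9.20 and 9.25, and Grik3, encoding GluK3, gave 9.86 and 9.88. The high-affinity subunits GluK4 and GluK5 need a partner from the first group. Grik4 read 8.74 and 8.87 and Grik5 read 10.34 and 10.43. Thus genes for both the channel-forming and the partner subunits gave signal. Grid1 encodes the delta receptor GluD1, which binds presynaptic cerebellins and organises synapses, and it read 9.54 and 9.49.

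All 6 TARP genes passed every threshold, against 38.5% of all named genes at the out-of-tissue threshold. TARPs are tetraspanning proteins that bind AMPA receptors, and the type I TARPs carry these receptors to the surface and slow their closing. Of the type I TARPs, Cacng3 gave 12.47 and 12.41, Cacng4 gave 9.14 and 9.19, and Cacng8, known for its role in the hippocampus, gave 10.98 and 11.03. Cacng2 encodes stargazin, the TARP mutated in the stargazer mouse, and averaged 8.685 and 8.775. Its probe sets read 10.57 and 10.53 and, 3.64 units lower on average, 6.80 and 7.02, and the weaker of them did not reach the out-of-tissue threshold on replicate 1. Of the type II TARPs, Cacng7 gave 11.54 and 11.58, and Cacng5 gave 7.59 and 7.65. On both arrays, 2 sensory receptor genes reached the signal of Cacng5.

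The other auxiliary subunits were likewise detected. Cornichons help membrane proteins leave the endoplasmic reticulum. Cnih2 and Cnih3, whose products also stay with AMPA receptors at the surface and slow them, were both over every threshold. Cnih2 gave 11.51 and 11.52 and Cnih3 gave 9.99 and 10.13, while the widespread Cnih1 gave 9.15 and 9.07. Neto1 and Neto2 encode auxiliary subunits of kainate receptors. Neto1 gave 10.73 and 10.71, and Neto2 gave 10.19 and 10.21. Shisa9, encoding CKAMP44, which slows the recovery of AMPA receptors from desensitisation, read 10.75 and 10.82. Shisa6, whose product keeps AMPA receptors from desensitising, read 9.03 and 8.96. Gsg1l, encoding an auxiliary subunit that dampens AMPA receptors, read 10.15 and 10.19. All 8 of these genes passed every threshold on both arrays, against 38.5% of all named genes at the out-of-tissue threshold.

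The 3 genes of cytoplasmic PDZ-domain partners were above background, against 60.3% of all named genes. Every threshold was passed by 2 of them, against 38.5% of named genes at the out-of-tissue threshold. Grip1, a scaffold that holds the tail of GluA2 and GluA3, gave 8.77 and 8.55. Pick1, which bends membranes and takes part in the removal of AMPA receptors from the surface, gave 8.08 and 7.84. Grip2, a relative of Grip1, gave 6.99 on both arrays, which passed the 99th percentile of sensory receptor signals but not the out-of-tissue threshold. Between 5 and 8 sensory receptor genes reached Grip2, depending on whether both arrays or either array were counted.

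The arrays repeated each other closely for these genes. The difference, replicate 2 minus replicate 1, had a median size of 0.06 units over the 33 members and 0.12 over all named genes. Within ranges of signal the values lay closer. Among members with a mean of 10 or more (15 genes) the median size was 0.05, beside 0.07 for the 1807 named genes in that range. Among the 18 members under 10 it was 0.075, beside 0.10 for the 12331 named genes from the lowest member up to 10. The arrays differed by 0.2 units or more in 3 members, against 29% of named genes. That share covers named genes at any signal, also under the lowest member, and was not computed for genes of like signal. The 3 members were Grin2c, higher on replicate 2 by 0.255, and Pick1 and Grip1, which on replicate 2 fell by 0.24 and fell by 0.22. In total 18 members were higher on replicate 2, 14 were lower and 1 was equal. None of these differences tests a condition.

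**Figure D3:**
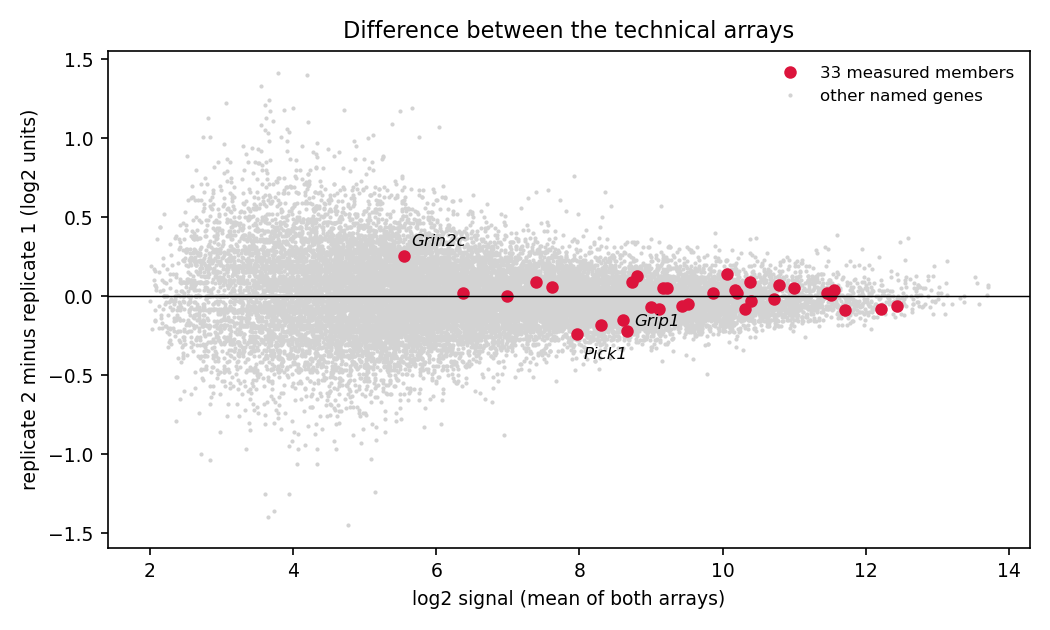
Difference between the arrays (vertical axis, replicate 2 minus replicate 1, log2 units) against mean log2 signal (horizontal axis) for the 33 measured members (red) and the other named genes (grey). The members lie within 0.255 units of 0, and Grin2c, Pick1 and Grip1 lie farthest from it.

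Members with several probe sets carried a further source of spread, larger than that between arrays. Of the 33 genes 29 had 1 probe set and 4 had 2, namely Grin2b, Grin2c, Grin2d and Cacng2. The mean gaps within those 4 genes were 5.48, 2.085, 2.11 and 3.64 units, beside a median gap of 2.14 over the 1082 named genes with several probe sets. Those of Grin2b and Grin2c are lower limits at best, since the weaker probe set of Grin2c was under background and that of Grin2b was at 5.72 on replicate 2, where background was 5.66. In 1 of the 4 members, Grin2c, the probe sets fell on different sides of background, against 43.2% of those 1082 genes. With 4 members these shares cannot be compared. Which transcripts the weaker probe sets match was not analysed here.

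Other genes of the glutamate synapse were counted with the same rule. Of all named genes 60.3% were above background and 38.5% passed the out-of-tissue threshold. Of genes for receptor assembly, processing and synaptic clustering, 16 of 16 measured were above background and also above the out-of-tissue threshold, with a median of 10.58. Frrs1l and Cpt1c, which act on AMPA receptors in the endoplasmic reticulum, averaged 11.89 ± 0.06 and 10.52 ± 0.09. The hydrolases Abhd6, which limits surface delivery of AMPA receptors, and Abhd12 averaged 9.80 ± 0.03 and 10.93 ± 0.01. Of postsynaptic scaffold genes 13 of 13 were above background and 12 passed the out-of-tissue threshold, with a median of 9.98. The genes of the PSD-95 family, whose PDZ domains bind NMDA receptors and TARPs, averaged 10.23 ± 0.10 for Dlg1, 10.19 ± 0.12 for Dlg2, 9.98 ± 0.01 for Dlg3 and 11.28 ± 0.04 for Dlg4.

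Genes that supply glutamate or take it up were above background in 9 of 9 measured cases, against 60.3% of all named genes. Their median was 9.51. Slc17a7, the vesicular glutamate transporter of most cortical excitatory neurons, read 12.28 and 12.32, and Slc17a6, the vesicular transporter best known from the thalamus, read 7.29 and 7.37. The vesicular transporter Slc17a8 read 6.50 and 6.37, above background but under the 99th percentile of sensory receptor signals. The neuronal uptake transporter Slc1a1 read 10.66 and 10.72. The 3 genes of the adenosine deaminase family, the enzymes that edit receptor messengers such as that of Gria2, were all above background. Adar averaged 10.53 ± 0.06, Adarb1, whose product edits the calcium-permeability site of GluA2, 10.68 ± 0.02, and Adarb2, not known to edit, 8.18 ± 0.03. The arrays do not tell edited from unedited messengers.

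Of genes that make, break down or carry the co-agonists of NMDA receptors, 4 of 7 measured were above background, a share near the 60.3% of all named genes. Srr, the enzyme that makes D-serine, gave 10.25 on both arrays, and Shmt2, a mitochondrial enzyme that makes glycine from serine, gave 8.11 and 8.22. Dao, which breaks D-serine down, gave 4.99 and 4.70, not above background on either array. The cytosolic enzyme Shmt1 passed on replicate 1 only, at 5.68 and 5.48. Slc6a5, the glycine transporter of glycinergic nerve endings, gave 5.31 and 5.33 and passed on neither array. On both arrays only Srr and Shmt2, 2 of these 7 genes, exceeded the out-of-tissue threshold, against 38.5% of named genes.

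**Figure D4:**
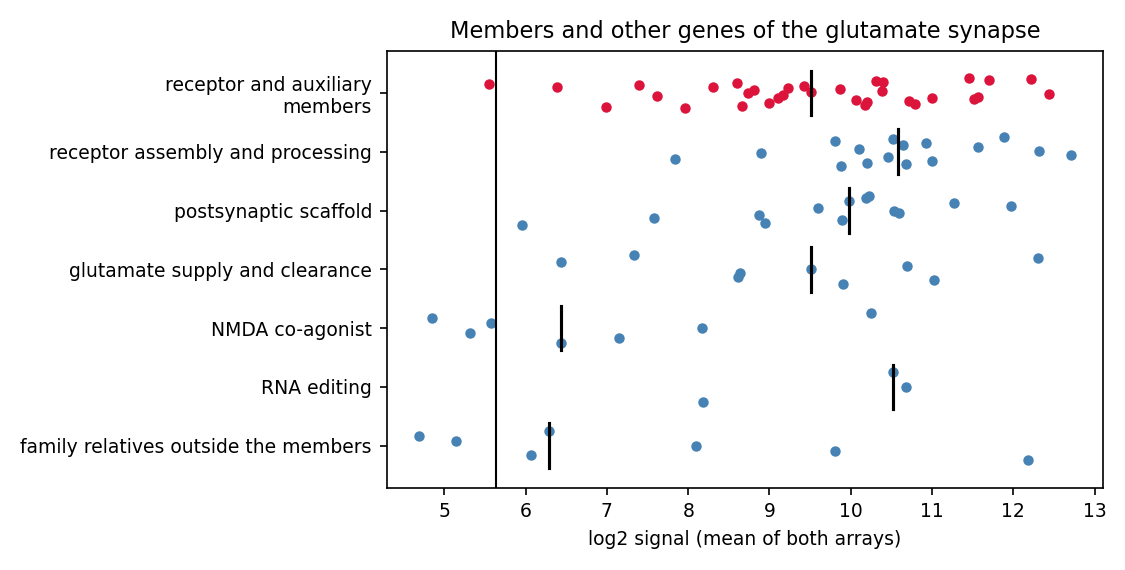
Mean log2 signal over both arrays (horizontal axis) of each measured gene (points) in the receptor set (red) and in 6 other lists of the glutamate synapse (blue). Short vertical bars are list medians and the long line is the 95th percentile of sensory receptor signals, at the mean of the arrays. The lists on NMDA receptor co-agonists and on family relatives spread to both sides of the line, with medians of 6.435 and 6.29.

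Relatives of the members by name, which lie outside the receptor set, were above background in 5 of 7 measured cases, against 60.3% of all named genes, and 3 passed the 99th percentile of sensory receptor signals, against 45%. The calcium channel gamma subunit genes Cacng1, known from skeletal muscle, and Cacng6 are relatives of the TARPs that are not counted among them. Cacng1 gave 4.71 and 4.67 and Cacng6 gave 5.25 and 5.04, and both were under background on both arrays, whereas the 6 TARP genes passed. Cnih4, a cornichon not known as an AMPA receptor subunit, gave 8.11 and 8.07.

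Drd2 and markers of cell types were read on the same scale. With no unprecipitated RNA or mock precipitation analysed here, these readings cannot test the label of the samples as Drd2+ cells. Drd2 read 10.78 and 10.70, and all 10 pan-neuronal genes passed, as did 7 of 7 measured genes that mark cortical excitatory cells. Markers of further cell types that also use these receptors gave signal too, where 60.3% of all named genes were above background. Which of these types the tagged cells include was not tested. Above background were 9 of 9 genes of GABAergic neurons, with means from 8.225 to 13.705, and 7 of 8 genes of striatal projection neurons, from 5.415 to 12.105, with Isl1 the exception. So were 10 of 10 astrocyte genes, from 5.72 to 11.05, 8 of 8 oligodendrocyte genes, from 6.635 to 9.39, 6 of 6 genes of oligodendrocyte precursors, from 6.205 to 8.09, and 8 of 8 microglial genes, from 5.845 to 7.835. The out-of-tissue threshold was passed by 7 of the 10 astrocyte genes and 6 of the 8 oligodendrocyte genes. It was also passed by 2 of the 6 precursor genes and 3 of the 8 microglial genes. Over all named genes 38.5% passed it, and the precursor and microglial shares were no higher than that. Of the neuronal lists, 10 of 10 pan-neuronal, 6 of 7 excitatory, 9 of 9 GABAergic and 7 of 8 striatal genes passed it. The part of such cells in the signal of the receptor genes was not tested. In RNA pooled from many cells, fewer cells with a transcript and less of it per cell cannot be told apart.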

How the data were processed

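Affymetrix whole-transcript arrays measured RNA from tagged ribosomes on 2 technical arrays of a pool of 5 mice, labelled with the WT Plus kit per the labels' protocols. The deposited table holds 1 log2 signal per probe set (34472) and array. The log base is inferred from the values. For background correction, summarisation and normalization the method is not given in the sources used here. Scanner files were not used here. Pearson's r between the arrays across probe sets was 0.994.

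The platform annotation gave the gene names: 23521 name 1 gene, 1814 several and 9137 are unnamed here. Symbols were checked by gene identifier against a RefSeq table (GRCm38.p6), which changed 0. Probe sets of a gene were averaged. Thresholds are percentiles within an array, computed with Python 3.11.15, numpy 2.4.6 and pandas 2.3.3. The error rate of calls for genes near a threshold, such as Grin2c, was not tested. Promoter windows are RefSeq's, 250 bases before each start, on that assembly. They were matched by symbol.

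The members and lists were chosen with earlier results of these data known. Named in the text are all members, the first 4 measured genes of each pathway list and any gene on the other side of background from most of its list. Marker lists are given as counts and ranges. Some genes these rules name are not reported here. Alternatives were other thresholds, quantile normalization, either array by itself, and the highest, lowest or only probe set. Precision is limited by the number of arrays.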

Additional observations from a re-analysis of the deposited data

How the results depend on the processing

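The count of members above background stayed within 1.5 times its value under every alternative run, and 30 to 33 members passed wherever all 33 were measured. Individual calls changed in 3 genes. Grin3b was not called at the 99th percentile of sensory receptor signals, and Grin3b and Grip2 were not at the out-of-tissue threshold. Grin2c was called from its highest probe set, and from replicate 2 alone by a margin of 0.02. The median over the members was 10.06 with the highest probe set of each gene and 10.06 over the 29 members with 1 probe set, against 9.515 as reported, since the 4 genes with 2 probe sets have means under that median and the stronger probe sets of Grin2b and Cacng2 lie over it. Of the NMDA receptor subunits, 3 have 1 probe set and all 3 were called, so that count became 3 by construction. Genes of NMDA receptor co-agonists above the out-of-tissue threshold numbered 2 of 7, against 4 as reported, and family relatives 3 of 7 both there and at the 99th percentile, against 5. Quantile normalization and leaving out either array kept every count of members and of other genes within 1.5 times its reported value. No paired analysis was possible because there is 1 group. The labels do not say at which step the technical replicates were split, so which steps their SD covers is unknown, and neither the spread between animals nor the detection limit of a single probe set could be estimated.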

Other observations

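The RefSeq table of GRCm38.p6 places most genes of the calcium channel gamma family in runs, when only protein-coding genes are counted. Cacng1, Cacng4 and Cacng5 follow each other on chromosome 11, and Cacng7, Cacng8 and Cacng6 on chromosome 7. In each run the TARP genes were above background and the remaining relative was not, where 60.3% of all named genes were above background. Whether position in a run goes with signal was not tested. On chromosome 11 the signals were 9.14 and 9.19 for Cacng4 and 7.59 and 7.65 for Cacng5, beside 4.71 and 4.67 for Cacng1. On chromosome 7 they were 11.54 and 11.58 for Cacng7 and 10.98 and 11.03 for Cacng8, beside 5.25 and 5.04 for Cacng6. This order was looked up after the signals were seen.

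Of the 34 listed genes 22, Grin1 among them, have a promoter window in the RefSeq table, 27 windows in all. Over the 250 bases before the start, these windows held a median of 13 CpGs, against 6 over all 32851 windows, with a range from 0 to 42. Windows with 16 or more CpGs made up 12 of the 27, against 25.4% of all windows. The GC box GGGCGG, on either strand, was in 12 of the 27 windows (44.4%), against 32.7% of all windows. The TATA box sequence TATAAA, on either strand and at any position, was in 2 windows (7.41% against 12.4%), those of Grin3b and of a Grip1 start. Its distance from the start was not considered, so whether these matches act as TATA boxes was not tested. The cAMP response element TGACGTCA was in 0, against 1.55%. Windows of a gene with several starts share that gene, and the arrays do not show which start was used.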
